A study of Homo sapiens with 60 samples.

Results

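Glycolysis and hypoxia-induced genes were followed here as a set of 38 named genes in SW1783 cells. The list names genes and applies no threshold to measured values, but it was drawn up with earlier results of these data known. The genes were looked up by gene symbol through the Ensembl identifiers of the deposited table. All 38 were found among the 60675 genes of the table, and all 38 were among the 17919 genes that passed the filter on low counts. By role they comprised 14 glycolytic enzymes (GPI, PFKL, PFKM, PFKP, ALDOA, ALDOC, TPI1, GAPDH, PGK1, PGAM1, ENO1, ENO2, PKM and LDHA) and 2 regulators of glycolytic flux (PFKFB3 and PFKFB4). The others were 2 alpha subunits of hypoxia-inducible factor (HIF1A and EPAS1), 2 HIF prolyl hydroxylases (EGLN1 and EGLN3) and 18 other HIF targets: VEGFA, ADM, CA9, CA12, SLC16A3, BNIP3, BNIP3L, P4HA1, P4HA2, PLOD2, GYS1, GBE1, ANKRD37, NDRG1, KDM3A, MXI1, ERO1A and HILPDA.

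RNA was sequenced from SW1783, an established human astrocytoma line, after 24 h with 1 of 3 drugs, 1 of 6 water extracts used in herbal medicine, or vehicle. The drugs were thioridazine, a phenothiazine antipsychotic, and wortmannin and LY294002, inhibitors of PI3-kinase, each at 10 µM. The extracts, each at 20, 100 and 500 µg/mL (the low, medium and high dose), were those labelled Poria Cocos (poria), Atractylodis Rhizoma (atractylodes), Glycyrrhizae Radix (licorice), Panax Ginseng (ginseng), Angelicae Gigantis Radix (angelica) and Paeoniae Radix (peony). The vehicle was DMSO (0.1% by the labels of the samples, 2% by the series' own text). The labels give a DMSO percent for vehicle only. If the extracts were given without DMSO, extract and solvent cannot be told apart in a comparison with vehicle. The 60 libraries formed 22 groups, with 2 libraries in each of the 6 angelica and peony groups and 3 in each of the other 16. All cells came from 1 line in medium with 10% serum, and the labels give no hypoxic treatment for any group. They do not say whether libraries of a group came from separate cultures, so p-values measure the spread between libraries, which may be technical.

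Glycolysis turns glucose into pyruvate, and lactate dehydrogenase then converts pyruvate to lactate. HIF is a transcription factor of an alpha and a beta subunit. With oxygen, prolyl hydroxylases mark the alpha subunit for degradation, and without it the alpha subunit accumulates and raises transcription of most glycolytic enzymes. Its other targets serve blood vessel growth (VEGFA), acid and lactate handling (CA9, CA12, SLC16A3), mitophagy (BNIP3, BNIP3L), collagen hydroxylation (P4HA1, P4HA2, PLOD2) and glycogen storage (GYS1, GBE1), and many gliomas run this program at a high level. PI3-kinase signalling is also known to promote glucose uptake and glycolysis.

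Both forms of the core of the HIF binding motif were searched in RefSeq promoter windows (GRCh38.p14) that run from 250 bases before to 50 bases after each gene's start. One form was ACGTG, or CACGT on the other strand, and the other was GCGTG, or CACGC on the other strand. Of the 38 genes, 34 had a window. ACGTG was held by 15 of these (44.1%), against 21.4% of all 35116 windows, and GCGTG by 18 (52.9%), against 36.5% of all windows. The background was neither limited to the genes tested here nor matched for base content. The difference is therefore not read as particular to HIF or to the set. By role, 7 of 14 glycolytic enzymes and 7 of 14 other HIF targets with a window held ACGTG. NDRG1, VEGFA, BNIP3L and HILPDA were the genes without a window. The windows of BNIP3, CA9, PFKFB4 and ADM, whose levels recur in the results, are printed on the strand of the gene, with ACGTG matches in capitals. BNIP3 (chr10:131981874-131982173, minus strand) has a palindromic ACGTG match that reads as the motif on both strands and 4 GCGTG matches, and CA9 (chr9:35673678-35673977, plus strand) has 1 ACGTG match and 0 GCGTG matches. PFKFB4 (chr3:48556754-48557053, minus strand) and ADM (chr11:10304823-10305122, plus strand) have 0 ACGTG matches and 1 GCGTG match each in these 300 bases. A match describes the letters only, and HIF binding was not measured.
BNIP3: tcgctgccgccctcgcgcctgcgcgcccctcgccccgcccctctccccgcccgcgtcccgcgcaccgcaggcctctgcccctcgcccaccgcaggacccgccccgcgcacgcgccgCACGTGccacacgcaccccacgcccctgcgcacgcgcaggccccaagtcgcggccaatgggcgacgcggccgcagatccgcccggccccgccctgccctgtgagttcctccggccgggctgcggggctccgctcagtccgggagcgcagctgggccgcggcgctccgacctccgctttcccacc
CA9: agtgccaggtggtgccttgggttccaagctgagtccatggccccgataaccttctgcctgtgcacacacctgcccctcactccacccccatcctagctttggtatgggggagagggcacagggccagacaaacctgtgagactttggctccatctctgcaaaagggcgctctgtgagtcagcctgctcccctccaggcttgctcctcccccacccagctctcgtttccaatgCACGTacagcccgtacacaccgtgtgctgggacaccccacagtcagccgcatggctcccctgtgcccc
PFKFB4: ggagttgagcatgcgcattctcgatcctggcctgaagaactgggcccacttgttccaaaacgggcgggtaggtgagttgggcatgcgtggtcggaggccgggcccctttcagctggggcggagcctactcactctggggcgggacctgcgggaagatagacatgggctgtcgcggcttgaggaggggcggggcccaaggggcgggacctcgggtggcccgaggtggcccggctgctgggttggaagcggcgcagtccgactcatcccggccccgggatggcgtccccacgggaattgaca
ADM: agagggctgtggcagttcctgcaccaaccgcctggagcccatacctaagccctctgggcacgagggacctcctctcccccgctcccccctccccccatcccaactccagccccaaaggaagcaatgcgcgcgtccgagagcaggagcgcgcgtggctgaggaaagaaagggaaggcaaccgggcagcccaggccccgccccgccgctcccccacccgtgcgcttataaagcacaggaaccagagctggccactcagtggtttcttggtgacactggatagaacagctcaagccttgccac

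Library totals ran from 19.45 M counts, in peony high 1, to 30.87 M counts (median 26.05). All levels are CPM, counts relative to the library size scaled by TMM. The line had high VIM and CD44 (means of 6014 and 2745 CPM in vehicle), while the astrocyte-defining GFAP, AQP4 and ALDH1L1 were at or below 0.177 CPM in every vehicle library and the microglial AIF1 was at 0 in all 3. On the list with AIF1, PTPRC averaged 8.723 CPM in vehicle, while CX3CR1 and P2RY12 averaged 0.0118 and 0.0125 CPM. Levels of the other astroglial markers (S100B, SLC1A3, SLC1A2, SOX9, GJA1 and NES) are not given singly here. Some of them were expressed, because the vehicle sum of the list exceeds VIM and CD44 together. The summed level of 11 astroglial markers was 6582 to 6786 CPM after thioridazine, 7102 to 7428 CPM after licorice and 7037 to 7830 CPM after peony at their high doses, against 8897 to 9289 CPM in vehicle. Most of that sum was VIM and CD44. The summed level of 5 neuronal markers was 122 to 129 CPM after thioridazine, 78.3 to 84 CPM after licorice and 156 to 159 CPM after peony at their high doses, against 145 to 147 CPM in vehicle. That of 4 oligodendrocyte markers was 9.77 to 11.3, 6.69 to 7.32 and 8.04 to 10.1 CPM in the same order, against 5.27 to 5.81 CPM in vehicle. That of 4 microglial and blood markers was 3.47 to 3.76, 5.05 to 6.58 and 9.77 to 12 CPM, against 8.4 to 9.03 CPM in vehicle. Most of the oligodendrocyte sum was MBP (mean of 5.234 CPM in vehicle), and most of the microglial and blood sum was PTPRC. In the same order, 3 endothelial markers summed to 1.5 to 2.35, 0.694 to 0.952 and 1.01 to 3.22 CPM (0.566 to 1.01 CPM in vehicle). The sums of 3 epithelial markers were 0.0716 to 0.261, 0.036 to 0.0866 and 0.139 to 1.1 CPM (0.0375 to 0.106 CPM in vehicle). The 2 high-dose peony libraries thus differed from each other in both sums, at low levels. The part of these markers in the results was not tested. All cells were of 1 line, so these sums do not count cell types. In such bulk samples, fewer cells with a marker and less of its RNA per cell cannot be told apart. In an earlier analysis of these data 5 libraries stood apart from their groups (licorice medium 3, atractylodes high 1, angelica low 2, ginseng low 1 and peony high 1). Counts, calls or effect sizes that rest on them are given with and without them. In groups of 2 libraries neither can be called the one apart. The sample codes begin with A1 for vehicle, 1 for the drugs, 2 for poria and atractylodes, 3 for licorice and ginseng, and 4 for angelica and peony. All titles name BatchA. The labels do not say what the codes mean or whether vehicle shares a set with the drugs. The codes are read here as sets. On that reading, treatment and set cannot be told apart in a comparison with vehicle, whereas the doses of an extract share a set, and so do the drugs.

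In vehicle cells, glycolytic enzymes were the most abundant members per kilobase of annotated exon, with all exons of a gene merged. That length can exceed the length of the expressed transcript, unevenly between genes. GAPDH was first at 1606 CPM per kilobase, followed by ENO1 at 565, ALDOA at 459, PKM at 385 and LDHA at 295 CPM per kilobase. Of the HIF alpha subunits, HIF1A was at 202 and EPAS1 at 28.0 CPM per kilobase. The lowest were ANKRD37, which encodes an ankyrin-repeat protein, at 1.5 and EGLN3 at 0.604 CPM per kilobase. Across the 22 group means, the widest range was that of NDRG1, a stress- and differentiation-associated gene, at 6.06-fold, followed by EGLN3 at 3.03-fold and BNIP3, which encodes a mitophagy receptor, at 2.79-fold. HIF1A had the narrowest range, at 1.24-fold. Thioridazine gave the lowest group mean for 20 of the 38 members and peony at the high dose for 12. Against vehicle, 37 members were called in at least 1 of 21 comparisons, where called means an adjusted p under 0.05 over all genes tested (quasi-likelihood F-test of edgeR, adjusted by Benjamini-Hochberg). The exception was ANKRD37, at 2.64 to 5.58 CPM over all libraries. The share of all genes called in at least 1 comparison was not computed, so this count is not read as particular to the set. Thioridazine alone called 48.4% of all genes tested. Each fold change is given on the log2 scale with its standard error (SE). Most members named for a comparison were picked from those called whose groups do not overlap. For them, a statement that groups do not overlap follows from that choice and adds no support. The share of all genes without overlap was not computed. Nor was the share of all genes at an unadjusted p under 0.05. Percents of all genes are at the adjusted threshold and are no background for counts at an unadjusted p.

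**Figure D1:**
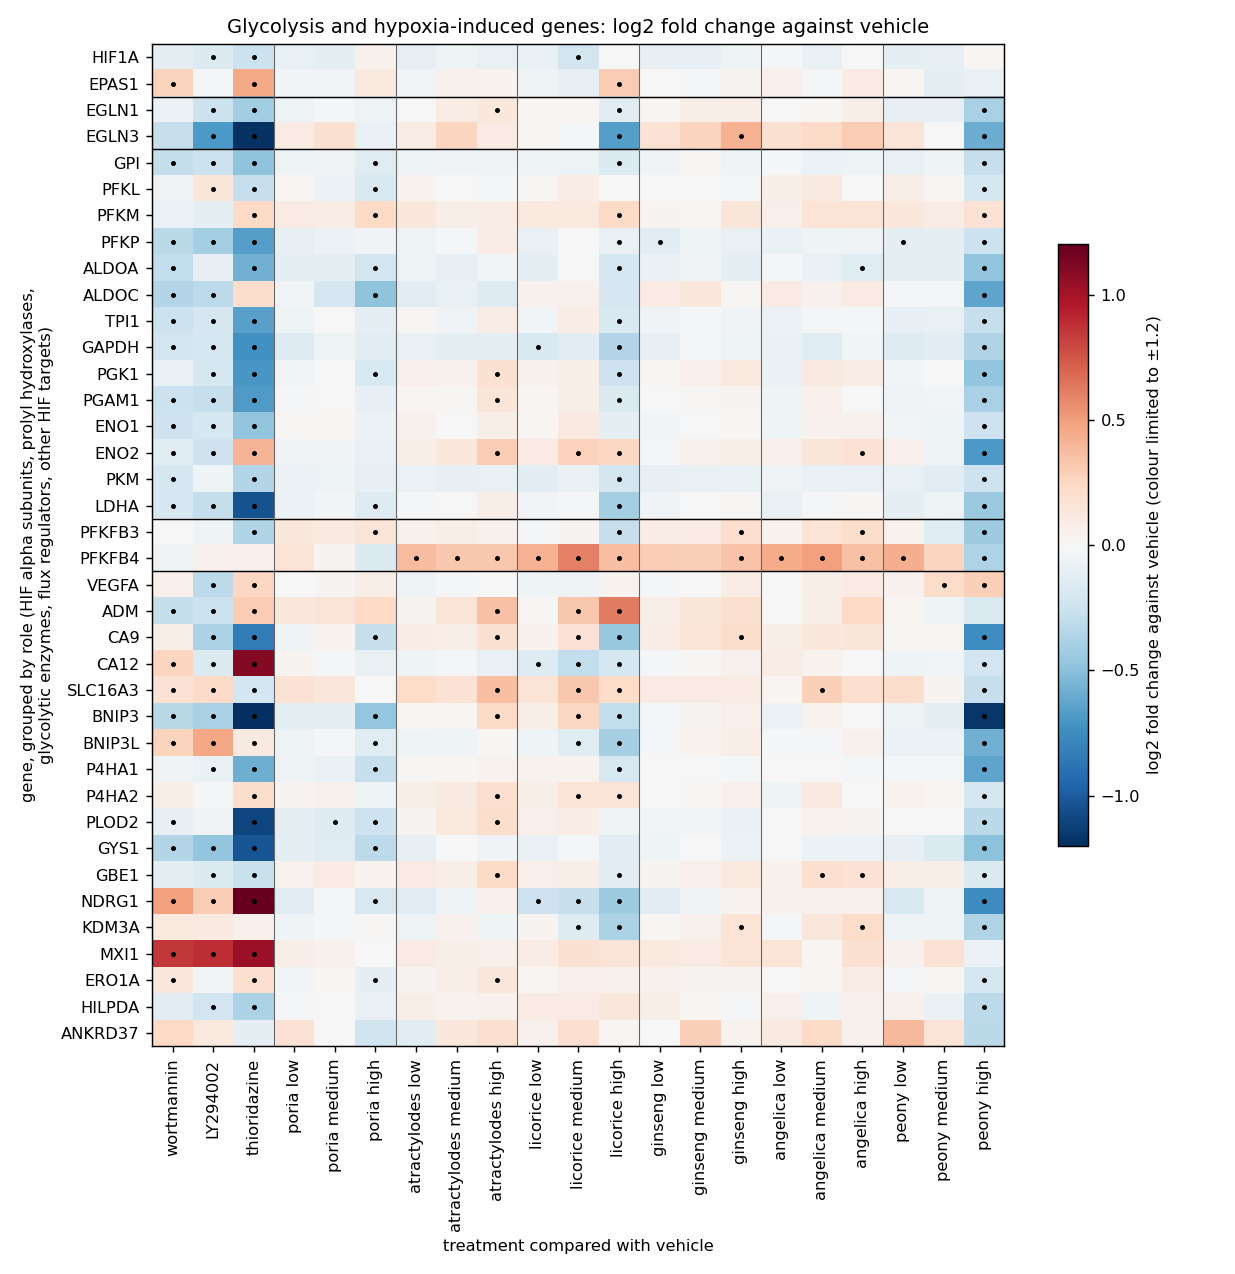
Log2 fold change against vehicle of the 38 genes (rows, by role) after each drug and each extract dose (columns, low to high within an extract), with a dot where the change was called. Lower values stand out for thioridazine (23 genes lower) and for peony at the high dose (31 genes lower), while the low and medium peony columns are pale.

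Peony at the high dose lowered most of the set. It lowered 31 of 38 members and raised 2, with 20.7% of all genes called, 10.3% higher and 10.4% lower. Of the glycolytic enzymes, 13 of 14 were lower and PFKM, the muscle-type phosphofructokinase, was higher. The PFKM call was lost without vehicle replicate 1 or peony high replicate 2 (adjusted p of 0.0956 and 0.345), with a log2 fold change of 0.17 with all libraries and 0.09 without the peony library. The other HIF targets had 14 of 18 lower and VEGFA higher, and the median log2 fold change was -0.32 in both groups of genes, against 0.025 over all genes. BNIP3 had 53.4 and 55.3 CPM after peony at the high dose, against 124, 125 and 118 CPM in vehicle (log2 fold change -1.17 ± 0.062, edgeR adjusted p = 1.14e-20). The peony libraries were far below the vehicle range. NDRG1 had 29.9 and 32.5 CPM after peony, against 53.9, 52.6 and 52 CPM in vehicle (log2 fold change -0.75 ± 0.07, edgeR adjusted p = 3.85e-12). CA9, which encodes a membrane carbonic anhydrase, had 21.4 and 21.2 CPM after peony, against 34.3, 36.6 and 36.6 CPM in vehicle (log2 fold change -0.75 ± 0.079, edgeR adjusted p = 1.85e-10). In all 3 genes both peony libraries lay below all vehicle libraries.

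Among the enzymes, the neuronal-type enolase ENO2 had 32.2 and 35.5 CPM after peony at the high dose, against 54.3, 55.3 and 54.7 CPM in vehicle (log2 fold change -0.69 ± 0.058, edgeR adjusted p = 2.51e-13). The brain-type aldolase ALDOC had 4.18 and 4.16 CPM after peony, against 6.19, 6.72 and 6.56 CPM in vehicle (log2 fold change -0.64 ± 0.129, edgeR adjusted p = 0.000251). For both, the vehicle libraries stood close together above the peony libraries. The enzymes with the highest levels fell less. GAPDH had 3641 and 3816 CPM after peony, against 4904, 4740 and 4720 CPM in vehicle, a log2 fold change of -0.36 ± 0.06. LDHA had 1300 and 1385 CPM after peony, against 1881, 1822 and 1786 CPM in vehicle, a log2 fold change of -0.44 ± 0.043. The groups did not overlap for either enzyme. P4HA1, a catalytic subunit of collagen prolyl hydroxylase, fell by 0.63 ± 0.04 on the log2 scale (edgeR adjusted p = 5.4e-18), and both flux regulators fell, PFKFB3 by 0.42 and PFKFB4 by 0.37. VEGFA, the vascular growth factor, went the other way, with 414 and 441 CPM after peony against 355, 350 and 347 CPM in vehicle (log2 fold change 0.29 ± 0.045, edgeR adjusted p = 3.45e-06).

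The same direction was seen within the peony set, in a comparison that uses the same high-dose libraries and so does not count as separate evidence. Against the low dose, the high dose lowered 30 of 38 members and raised 1, with 5.90% of all genes called, 2.78% higher and 3.13% lower. BNIP3 had 53.4 and 55.3 CPM at the high dose, against 118 and 116 CPM at the low dose (log2 fold change -1.10 ± 0.067, edgeR adjusted p = 3.21e-18). PFKFB4, a bifunctional enzyme that sets the level of an activator of phosphofructokinase, had 20.9 and 19.2 CPM at the high dose, against 34.7 and 35.1 CPM at the low dose (log2 fold change -0.80 ± 0.102, edgeR adjusted p = 8.56e-08). CA9 had 21.4 and 21.2 CPM at the high dose, against 34.7 and 38.3 CPM at the low dose (log2 fold change -0.77 ± 0.085, edgeR adjusted p = 1.65e-09). In each gene both high-dose libraries lay below both low-dose libraries. By role, 11 of 14 glycolytic enzymes were lower (median log2 fold change -0.25) and 15 of 18 other HIF targets (median -0.35). VEGFA was again the 1 that was higher, at 0.23 ± 0.05. ANKRD37, called in no comparison with vehicle, was lower here, at 2.64 and 3.47 CPM at the high dose against 5.3 and 4.84 CPM at the low dose (edgeR adjusted p = 0.0366). That call was lost without peony high replicate 1 or either low-dose library (adjusted p up to 0.403). Without the 5 libraries that stood apart, which leaves 1 high-dose peony library, fewer members were called in both comparisons. With single libraries left out in turn, the log2 fold change of BNIP3 ran from -1.213 to -1.143 against vehicle. Against the low dose it ran from -1.139 to -1.079 for BNIP3, -0.863 to -0.746 for PFKFB4 and -0.844 to -0.699 for CA9.

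At the lower peony doses the share of members called was near that of all genes. At the medium dose 1 member was higher and 0 lower than vehicle (2.55% of all genes called, 1.56% higher and 0.988% lower), while DESeq2 called 2 lower. At an unadjusted p under 0.05 there were 9 lower, and the share of all genes at that threshold was not computed. VEGFA was the called member, with 403 and 412 CPM at the medium dose against 355, 350 and 347 CPM in vehicle (log2 fold change 0.22 ± 0.045, edgeR adjusted p = 0.0025), and was not called without peony medium replicate 2 (adjusted p = 0.139). At the low dose PFKFB4 was higher and the platelet-type phosphofructokinase PFKP lower than vehicle (5.23% of all genes called, 2.73% higher and 2.50% lower). The PFKP call was lost without vehicle replicate 1 or 2 or without either low-dose library (adjusted p up to 0.363). The counts of 1 and 2 became 12 and 11 when the 2 groups were fitted alone, and 8 and 7 without the 5 libraries that stood apart. The shares of all genes called in these settings are not given here. The plot of levels by extract and dose shows BNIP3, CA9 and ENO2 at 20 and 100 µg/mL of peony near one another and lower at 500 µg/mL.

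**Figure D2:**
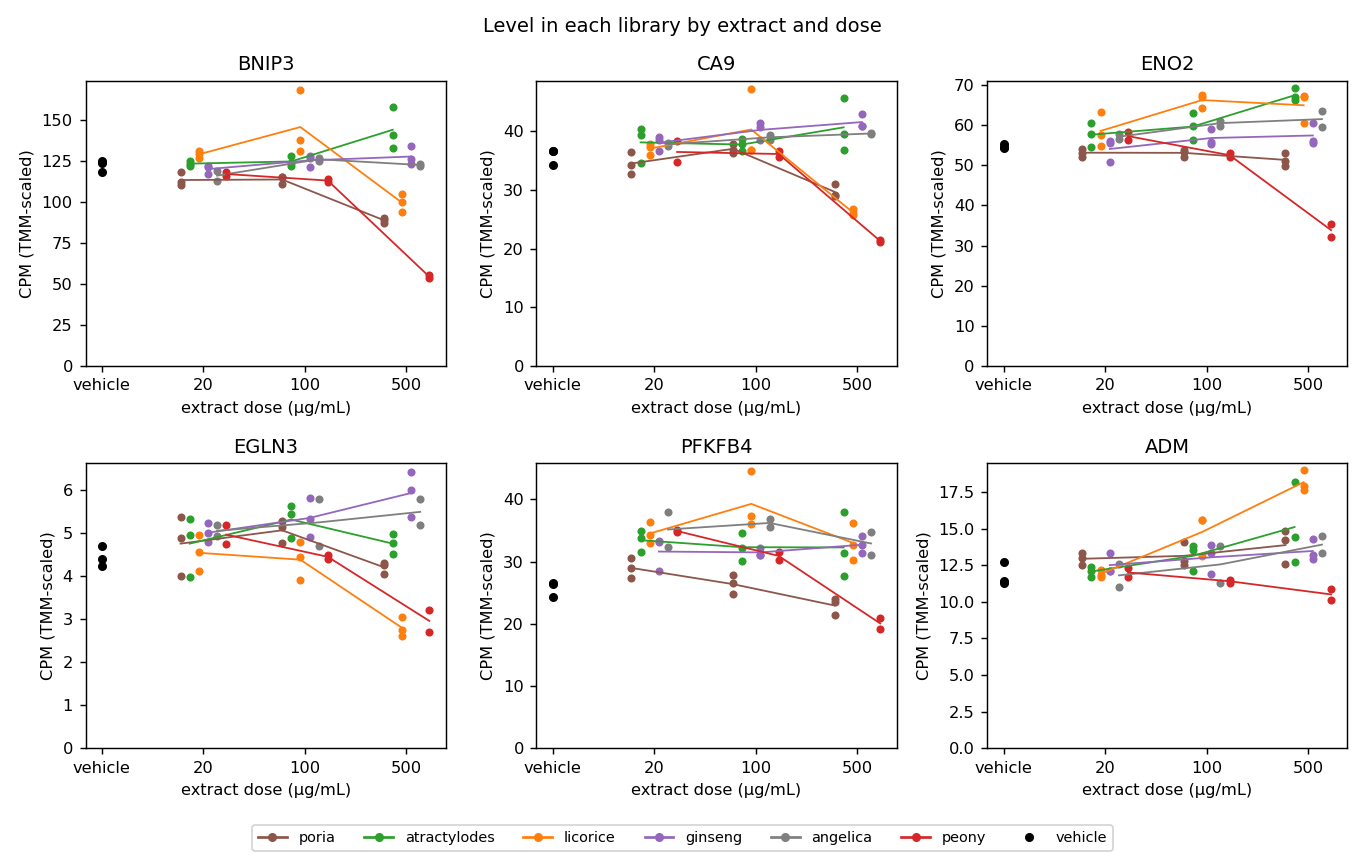
Level (TMM-scaled CPM, y axis) of 6 genes in each library by dose (x axis: vehicle, then 20, 100 and 500 µg/mL) for each extract. Peony is lowest at 500 µg/mL in BNIP3, CA9, ENO2 and PFKFB4, and licorice at 500 µg/mL is low in EGLN3 and high in ADM.

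Thioridazine changed 34 of 38 members, lowering 23 and raising 11, with 48.4% of all genes called, 24.6% higher and 23.8% lower. It lowered 11 of 14 glycolytic enzymes, with a median log2 fold change of -0.53, and raised ENO2 and PFKM. LDHA, a subunit of lactate dehydrogenase, had 893, 908 and 862 CPM after thioridazine, against 1881, 1822 and 1786 CPM in vehicle (log2 fold change -1.04 ± 0.038, edgeR adjusted p = 9.43e-30). PGK1, phosphoglycerate kinase, had 573, 584 and 579 CPM after thioridazine, against 925, 950 and 943 CPM in vehicle, a log2 fold change of -0.70 ± 0.042. GAPDH had 2886, 2960 and 2848 CPM after thioridazine, against 4904, 4740 and 4720 CPM in vehicle, a log2 fold change of -0.72 ± 0.054. All thioridazine libraries lay well below all vehicle libraries for these enzymes. ENO2 had 72, 75.2 and 71 CPM after thioridazine, against 54.3, 55.3 and 54.7 CPM in vehicle (log2 fold change 0.41 ± 0.048, edgeR adjusted p = 2.69e-10). Neuronal-type and ubiquitous enolase (ENO1, log2 fold change -0.48 ± 0.049) thus moved in opposite directions.

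The other HIF targets split after thioridazine, with 8 higher, 8 lower and a median log2 fold change of -0.02. BNIP3 had 52.4, 51.9 and 52 CPM after thioridazine, against 124, 125 and 118 CPM in vehicle (log2 fold change -1.23 ± 0.054, edgeR adjusted p = 2.65e-26). PLOD2, a lysyl hydroxylase of collagen, had 166, 155 and 164 CPM after thioridazine, against 344, 349 and 348 CPM in vehicle (log2 fold change -1.10 ± 0.036, edgeR adjusted p = 6.29e-32). GYS1, glycogen synthase, fell by 1.03 ± 0.058 on the log2 scale and CA9 by 0.84 ± 0.069. All 4 were far below vehicle in every thioridazine library. In contrast NDRG1 had 168, 198 and 200 CPM after thioridazine, against 53.9, 52.6 and 52 CPM in vehicle (log2 fold change 1.84 ± 0.056, edgeR adjusted p = 2.7e-33). CA12, a membrane carbonic anhydrase like CA9, had 111, 111 and 116 CPM after thioridazine, against 52, 55.5 and 50.6 CPM in vehicle (log2 fold change 1.10 ± 0.044, edgeR adjusted p = 2.98e-28). The carbonic anhydrases thus moved in opposite directions, with no overlap between groups for either. MXI1, a MAX-binding antagonist of MYC, rose by 1.03 ± 0.067, and ADM, VEGFA, P4HA2, ERO1A and BNIP3L rose by 0.10 to 0.31 on the log2 scale.

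**Figure D3:**
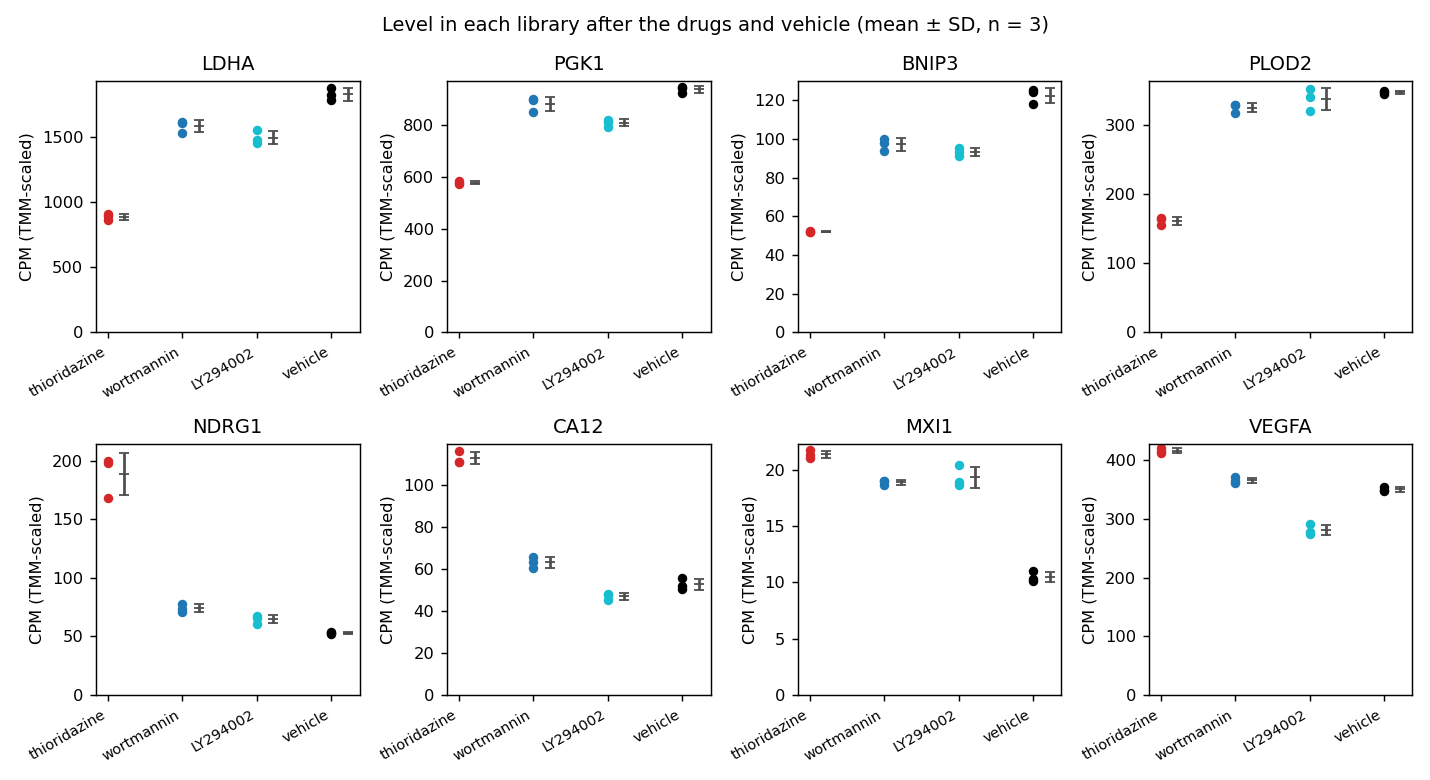
Level (TMM-scaled CPM, y axis) of 8 genes in each library after thioridazine, wortmannin, LY294002 and vehicle, with mean ± SD (n = 3). LDHA, PGK1, BNIP3 and PLOD2 are lowest after thioridazine, NDRG1 and CA12 are highest after it, and MXI1 is above vehicle after all 3 drugs.

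The PI3-kinase inhibitors lowered many glycolytic enzymes by smaller amounts. Wortmannin lowered 15 members and raised 7 (31.7% of all genes called, 15.4% higher and 16.4% lower), and LY294002 lowered 22 and raised 5 (39.3% of all genes called, 19.4% higher and 19.9% lower). Of the 14 enzymes, wortmannin lowered 11 (median log2 fold change -0.23). LY294002 lowered 10 and raised PFKL, the liver-type phosphofructokinase (median -0.21). PFKP had 206, 214 and 207 CPM after wortmannin and 190, 199 and 203 CPM after LY294002, against 264, 265 and 255 CPM in vehicle. The log2 fold changes of -0.32 ± 0.033 for wortmannin and -0.40 ± 0.033 for LY294002 had edgeR adjusted p of 1.56e-11 and 7.98e-15, with every inhibitor library below every vehicle library. GYS1 fell by 0.35 ± 0.056 after wortmannin and by 0.47 ± 0.057 after LY294002, and BNIP3 by 0.33 ± 0.052 and 0.39 ± 0.052. ALDOC, the brain-type aldolase, fell by 0.35 ± 0.109 after wortmannin. PFKFB3 and PFKFB4 were called after neither inhibitor.

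The member that rose most after each inhibitor was MXI1. It had 18.6, 19 and 19 CPM after wortmannin and 18.6, 20.4 and 18.9 CPM after LY294002, against 11, 10.3 and 10.1 CPM in vehicle. The log2 fold changes were 0.85 ± 0.068 for wortmannin (edgeR adjusted p = 6.94e-15) and 0.88 ± 0.068 for LY294002 (edgeR adjusted p = 1.45e-15). NDRG1 rose by 0.49 ± 0.057 after wortmannin and 0.30 ± 0.058 after LY294002. BNIP3L, a mitophagy receptor related to BNIP3, rose by 0.27 ± 0.036 and 0.47 ± 0.036, while BNIP3 fell. The lactate exporter SLC16A3 was also higher after both, by 0.18 ± 0.067 and 0.23 ± 0.067. The SLC16A3 calls were lost after wortmannin without vehicle replicate 1 or wortmannin replicate 2 or 3 (adjusted p up to 0.109), and after LY294002 without LY294002 replicate 3 (adjusted p = 0.0701). These comparisons share the vehicle libraries, so the drugs were also compared with each other within their set.

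Wortmannin against LY294002 called 9 members higher and 4 lower (16.4% of all genes called, 8.79% higher and 7.57% lower). CA9 had 35.4, 39.1 and 38.2 CPM after wortmannin, against 26.2, 28.5 and 28.2 CPM after LY294002 (log2 fold change 0.44 ± 0.067, edgeR adjusted p = 1.7e-06). CA12 had 63.2, 60.6 and 65.8 CPM after wortmannin, against 47.5, 45.2 and 48.1 CPM after LY294002 (log2 fold change 0.43 ± 0.045, edgeR adjusted p = 2.45e-10). VEGFA had 362, 365 and 371 CPM after wortmannin, against 275, 278 and 291 CPM after LY294002 (log2 fold change 0.38 ± 0.041, edgeR adjusted p = 3.25e-10). In each, all wortmannin libraries lay above all LY294002 libraries. EPAS1, EGLN1 and EGLN3 were higher after wortmannin as well, by 0.28, 0.19 and 0.41 on the log2 scale. EGLN3 was not called without wortmannin replicate 3 or LY294002 replicate 2 (adjusted p of 0.129 and 0.182). Of the enzymes, ALDOA, PFKL and PKM were lower and PGK1 higher after wortmannin. The PGK1 call was lost without any 1 of 5 of the 6 libraries (the exception was wortmannin replicate 3) and the PKM call without LY294002 replicate 2 or 3 (adjusted p up to 0.148 for PGK1 and 0.0689 for PKM). MXI1 was not called between the inhibitors, at a log2 fold change of -0.03 ± 0.065.

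Thioridazine against LY294002 called 10 members higher and 21 lower (40.0% of all genes called, 19.5% higher and 20.4% lower), with 11 of 14 enzymes lower and ENO2, ALDOC and PFKM higher. NDRG1 had 168, 198 and 200 CPM after thioridazine, against 60.7, 66 and 67.7 CPM after LY294002 (log2 fold change 1.54 ± 0.056, edgeR adjusted p = 5.78e-30). CA12 was higher by 1.26 ± 0.045, and PLOD2 fell by 1.06 ± 0.036 on the log2 scale. These genes moved the same way after thioridazine against vehicle and within its own set. Both comparisons use the same thioridazine libraries and the genes were picked for large changes, so they do not count as separate evidence.

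Licorice at the high dose lowered 20 members and raised 7 (30.9% of all genes called, 15.9% higher and 15.0% lower). LDHA had 1367, 1403 and 1365 CPM after licorice, against 1881, 1822 and 1786 CPM in vehicle (log2 fold change -0.41 ± 0.038, edgeR adjusted p = 7.59e-13). CA9 had 26.7, 26.1 and 25.8 CPM after licorice, against 34.3, 36.6 and 36.6 CPM in vehicle (log2 fold change -0.45 ± 0.067, edgeR adjusted p = 3.32e-07). Both genes were lower in all 3 licorice libraries. NDRG1 fell by 0.42 ± 0.06 and BNIP3L by 0.40 ± 0.037 on the log2 scale. ADM, the gene of the vasodilator peptide adrenomedullin, had 17.6, 17.9 and 19 CPM after licorice, against 11.4, 12.7 and 11.3 CPM in vehicle (log2 fold change 0.62 ± 0.088, edgeR adjusted p = 1.02e-07). The licorice libraries were all above the vehicle libraries for ADM. Of the enzymes 9 were lower, and ENO2 and PFKM higher, with a median log2 fold change of -0.17. Of the other HIF targets 8 were lower, and ADM, SLC16A3 and P4HA2 higher (median -0.09). The P4HA2 call was lost without vehicle replicate 1 (adjusted p = 0.0689).

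Within the licorice set, the high against the low dose called 17 members lower and 3 higher (18.2% of all genes called, 9.02% higher and 9.14% lower). ADM had 17.6, 17.9 and 19 CPM at the high dose, against 12.2, 11.8 and 11.7 CPM at the low dose (log2 fold change 0.61 ± 0.088, edgeR adjusted p = 3.2e-07). CA9 had 26.7, 26.1 and 25.8 CPM at the high dose, against 37.9, 37.3 and 36 CPM at the low dose (log2 fold change -0.50 ± 0.067, edgeR adjusted p = 6.12e-08). KDM3A, a histone demethylase that uses oxygen, had 26.3, 28.9 and 28.4 CPM at the high dose, against 37.3, 38.4 and 35.1 CPM at the low dose (log2 fold change -0.41 ± 0.054, edgeR adjusted p = 3.93e-08). None of the 3 overlapped between the doses.

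At the medium dose of licorice 7 members were higher and 5 lower than vehicle (25.2% of all genes called, 12.4% higher and 12.8% lower). PFKFB4 had 37.3, 36 and 44.5 CPM at the medium dose, against 26.6, 26.4 and 24.3 CPM in vehicle (log2 fold change 0.61 ± 0.079, edgeR adjusted p = 6.13e-08), and ADM was higher by 0.33 ± 0.089. HIF1A had 936, 974 and 769 CPM at the medium dose, against 1059, 1012 and 1052 CPM in vehicle (log2 fold change -0.22 ± 0.052, edgeR adjusted p = 0.00122). Licorice medium 3, a library that stood apart, was the highest of the 3 for PFKFB4 and the lowest for HIF1A. Without it the log2 fold change of HIF1A was -0.12 ± 0.049 and was not called (edgeR adjusted p = 0.0837), and that of PFKFB4 was 0.51 ± 0.082. Without all 5 such libraries 13 members were called, HIF1A among them at -0.12 ± 0.041 (edgeR adjusted p = 0.0298). At the low dose 1 member was higher and 3 lower (3.29% of all genes called, 1.53% higher and 1.76% lower), among them PFKFB4 at 0.42 ± 0.08 and NDRG1 at -0.25 ± 0.059. The count of 4 was 1 or 2 without any 1 of the 6 libraries except vehicle replicate 3. The NDRG1 call at the low dose was lost without vehicle replicate 1, licorice low replicate 1 or licorice low replicate 2 (adjusted p of 0.0646, 0.0579 and 0.0517).

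Poria at the high dose lowered 14 members and raised 2 (11.6% of all genes called, 5.17% higher and 6.41% lower). BNIP3 had 90.1, 89.1 and 87.4 CPM after poria, against 124, 125 and 118 CPM in vehicle (log2 fold change -0.46 ± 0.053, edgeR adjusted p = 3.29e-09). P4HA1 had 192, 193 and 194 CPM after poria, against 233, 237 and 231 CPM in vehicle (log2 fold change -0.28 ± 0.035, edgeR adjusted p = 5.11e-08). No poria library reached the vehicle range in either gene. ALDOC fell by 0.49 ± 0.111, GYS1 by 0.31 ± 0.056 and CA9 by 0.27 ± 0.066 on the log2 scale. The 2 raised members were PFKM and PFKFB3. PFKFB3 was not called without any 1 of the 6 libraries (adjusted p up to 0.116). Of the enzymes 6 were lower, and of the other HIF targets 8.

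Against poria at the low dose, 9 members were lower and 0 higher at the high dose (5.51% of all genes called, 2.73% higher and 2.78% lower; 3 higher at an unadjusted p under 0.05 and 0 higher with DESeq2). BNIP3 fell by 0.35 ± 0.053 on the log2 scale (edgeR adjusted p = 4.7e-06), and ALDOC by 0.46 ± 0.111. PFKFB4 had 21.4, 23.5 and 23.9 CPM at the high dose, against 27.4, 30.6 and 28.9 CPM at the low dose (log2 fold change -0.34 ± 0.082, edgeR adjusted p = 0.00726). The count of 9 was 5 without poria low replicate 1 or without poria high replicate 2. PFKFB4 was not called without poria high replicate 1 or poria low replicate 2 (adjusted p of 0.0664 and 0.0606). At the medium dose PLOD2 alone was called, at -0.15 ± 0.035 (1.47% of all genes called, 0.430% higher and 1.04% lower), and not without poria medium replicate 1 (adjusted p = 0.112). At the low dose edgeR called 0 members and DESeq2 called 2 (0.419% of all genes called, 0.117% higher and 0.301% lower). At an unadjusted p under 0.05, 4 members were higher and 8 lower there, with the share of all genes at that threshold not computed.

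Atractylodes at the high dose raised 13 members and lowered 0 (13.9% of all genes called, 7.24% higher and 6.63% lower; 2 lower at an unadjusted p under 0.05 and 0 lower with DESeq2). SLC16A3 had 392, 368 and 347 CPM after atractylodes, against 279, 292 and 293 CPM in vehicle (log2 fold change 0.36 ± 0.067, edgeR adjusted p = 0.000158). ENO2 had 67.1, 69.2 and 66.2 CPM after atractylodes, against 54.3, 55.3 and 54.7 CPM in vehicle (log2 fold change 0.30 ± 0.049, edgeR adjusted p = 9.6e-06). Both were higher in all 3 atractylodes libraries than in any vehicle library. BNIP3 had 158, 133 and 141 CPM after atractylodes, against 124, 125 and 118 CPM in vehicle (log2 fold change 0.23 ± 0.052, edgeR adjusted p = 0.0012). The highest of these BNIP3 values was that of atractylodes high 1, a library that stood apart. ADM, with 18.2, 12.7 and 14.4 CPM after atractylodes against 11.4, 12.7 and 11.3 CPM in vehicle, rose by 0.36 ± 0.09, and PFKFB4 by 0.32 ± 0.081.

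The count of 13 members was 6 without atractylodes high replicate 1 and 3 when the 2 groups were fitted alone. Without that library ADM and BNIP3 were not called, at log2 fold changes of 0.20 ± 0.091 and 0.17 ± 0.053 (adjusted p of 0.213 and 0.0543), and PFKFB4 was not called without atractylodes high replicate 2, at 0.19 (adjusted p = 0.101). Without all 5 libraries that stood apart, 11 members were called. SLC16A3 and ENO2 were called in each of these settings. Against the low dose, 6 members were higher and 0 lower (4.10% of all genes called, 2.24% higher and 1.86% lower; 0 lower at an unadjusted p under 0.05 and with DESeq2). They were ENO2 at 0.23 ± 0.049, BNIP3 at 0.22 ± 0.052, ADM at 0.33 ± 0.091, PFKP, PLOD2 and NDRG1. NDRG1 was not called without any 1 of the 6 libraries other than atractylodes high replicate 1 (adjusted p up to 0.156). The count of 6 was 0 when the 2 groups were fitted alone. ADM and BNIP3 were again not called without atractylodes high replicate 1, at 0.17 and 0.16 (adjusted p of 0.526 and 0.141), and ADM not without atractylodes low replicate 2 or 3 (adjusted p of 0.114 and 0.0729).

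Ginseng at the high dose raised 5 and lowered 0 (7.25% of all genes called, 3.05% higher and 4.20% lower; 4 lower at an unadjusted p under 0.05 and 2 lower with DESeq2). PFKFB4 had 32.7, 31.3 and 34.1 CPM after ginseng, against 26.6, 26.4 and 24.3 CPM in vehicle (log2 fold change 0.34 ± 0.08, edgeR adjusted p = 0.00429). EGLN3 had 5.37, 6 and 6.43 CPM after ginseng, against 4.39, 4.71 and 4.24 CPM in vehicle (log2 fold change 0.42 ± 0.107, edgeR adjusted p = 0.0102). The groups did not overlap for either gene. The count of 5 was 2 or 3 without any 1 of the 6 libraries, and it was 10 without the 5 libraries that stood apart, 12 with library totals in place of TMM and 14 when the 2 groups were fitted alone. EGLN3 was not called without vehicle replicate 3 or ginseng high replicate 3 (adjusted p of 0.0548 and 0.0824). PFKFB3, CA9 and KDM3A rose by 0.20, 0.21 and 0.16 on the log2 scale, and CA9 and KDM3A were not called when any 1 of the 6 libraries was left out (adjusted p up to 0.164 for CA9 and 0.168 for KDM3A). Against the low dose, edgeR and DESeq2 each called 0 members (0.653% of all genes called, 0.223% higher and 0.430% lower). At an unadjusted p under 0.05, 8 were higher and 0 lower, with the share of all genes at that threshold not computed. At the medium dose edgeR called 0 members and DESeq2 called 1 (0.569% of all genes called, 0.167% higher and 0.402% lower; 3 higher and 1 lower at an unadjusted p under 0.05). At the low dose PFKP alone was called, at -0.13 ± 0.033 (0.592% of all genes called, 0.218% higher and 0.374% lower), and not without any 1 vehicle library or ginseng low replicate 2 or 3 (adjusted p up to 0.372).

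Angelica at the high dose raised PFKFB4, KDM3A, PFKFB3, GBE1 and ENO2 and lowered ALDOA (6.46% of all genes called, 2.94% higher and 3.53% lower). PFKFB4 had 34.7 and 31.1 CPM after angelica, against 26.6, 26.4 and 24.3 CPM in vehicle (log2 fold change 0.35 ± 0.089, edgeR adjusted p = 0.00958). The other 4 rises were 0.17 to 0.22 on the log2 scale. GBE1, ENO2 and ALDOA were not called without any 1 of the 5 libraries (adjusted p up to 0.417, 0.529 and 0.373). The count of 6 was 1 without vehicle replicate 3 or either high-dose library, 2 without vehicle replicate 1 and 3 without vehicle replicate 2. PFKFB4 was not called without vehicle replicate 3 or angelica high replicate 1 (adjusted p of 0.0513 and 0.256). At the medium dose PFKFB4, SLC16A3 and the glycogen branching enzyme GBE1 were higher (2.91% of all genes called, 1.47% higher and 1.44% lower), and at the low dose PFKFB4 alone (1.75% of all genes called, 1.05% higher and 0.692% lower). The count of 3 was 1, and SLC16A3, at 0.29 ± 0.074, was not called, without vehicle replicate 1 or either medium-dose library (adjusted p up to 0.239). KDM3A was the 1 member called between the high and the low dose (log2 fold change 0.24 ± 0.064, edgeR adjusted p = 0.048), with 0.943% of all genes called, 0.385% higher and 0.558% lower. That call was lost without either high-dose library or without angelica low replicate 2 (adjusted p up to 0.774), while 5 members were called without angelica low replicate 1.

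PFKFB4 was the member called most often against vehicle, higher in 11 of 21 comparisons and lower after peony at the high dose. It was higher at the low dose of 4 extracts, with 31.6, 34.9 and 33.8 CPM after atractylodes, 34.2, 33 and 36.3 CPM after licorice, 37.9 and 32.4 CPM after angelica and 34.7 and 35.1 CPM after peony, against 26.6, 26.4 and 24.3 CPM in vehicle. No library of these 4 groups fell within the vehicle range. The log2 fold changes were 0.37 ± 0.081 for atractylodes, 0.42 ± 0.08 for licorice, 0.45 ± 0.088 for angelica and 0.44 ± 0.089 for peony (edgeR adjusted p of 0.0128, 0.000938, 0.00196 and 0.00148). It was the 1 member called at the low dose of atractylodes (0.804% of all genes called, 0.324% higher and 0.480% lower) and at its medium dose, where it was higher by 0.33 ± 0.081 (1.06% of all genes called, 0.675% higher and 0.385% lower). The atractylodes calls were lost at the low dose without vehicle replicate 1 or 3 or atractylodes low replicate 2 or 3, and at the medium dose without any 1 vehicle library or atractylodes medium replicate 2 or 3 (adjusted p up to 0.087 and 0.227). The angelica call was lost without angelica low replicate 1 (adjusted p = 0.161). All these comparisons share the 3 vehicle libraries, so a low level in those libraries and a rise in the treated ones cannot be told apart. Within sets PFKFB4 was called in poria and peony, lower at the high dose in both.

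The alpha subunits and the prolyl hydroxylases did not move as one. HIF1A had 862, 874 and 872 CPM after thioridazine, against 1059, 1012 and 1052 CPM in vehicle (log2 fold change -0.26 ± 0.052, edgeR adjusted p = 3.5e-05), and it fell by 0.16 ± 0.052 after LY294002. The LY294002 call was lost without vehicle replicate 1 or 3 or LY294002 replicate 2 or 3 (adjusted p up to 0.0975). At the extracts' high doses it was not called, with log2 fold changes of 0.05 for poria, -0.09 for atractylodes, -0.01 for licorice, -0.06 for ginseng, 0.00 for angelica and 0.03 for peony. EPAS1 had 276, 278 and 288 CPM after thioridazine, against 207, 199 and 208 CPM in vehicle (log2 fold change 0.46 ± 0.05, edgeR adjusted p = 3.26e-11). Every thioridazine library was below vehicle for HIF1A and above it for EPAS1. EPAS1 rose by 0.27 ± 0.051 after wortmannin and 0.30 ± 0.051 after licorice at the high dose, and by 0.35 ± 0.051 at the high against the low dose of licorice. It was not called after LY294002 (log2 fold change -0.01 ± 0.051), or at the high dose of poria (0.11), atractylodes (0.04), ginseng (0.03), angelica (0.10) or peony (-0.09).

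EGLN3, itself a HIF target, had 2.04, 1.96 and 1.87 CPM after thioridazine, against 4.39, 4.71 and 4.24 CPM in vehicle (log2 fold change -1.18 ± 0.127, edgeR adjusted p = 1.68e-11). On the log2 scale it fell by 0.69 ± 0.122 after LY294002, 0.66 ± 0.12 after licorice at the high dose and 0.60 ± 0.136 after peony at the high dose. EGLN1 was lower in the same 4 comparisons, by 0.41 ± 0.044 after thioridazine, 0.26 ± 0.044 after LY294002, 0.12 ± 0.044 after licorice and 0.39 ± 0.05 after peony. Wortmannin called neither hydroxylase (log2 fold changes -0.07 ± 0.044 for EGLN1 and -0.28 ± 0.115 for EGLN3, edgeR adjusted p of 0.257 and 0.0556). Of the other high doses, atractylodes raised EGLN1 by 0.13 ± 0.043 and ginseng raised EGLN3, as described. The EGLN1 call was lost after atractylodes without vehicle replicate 1 or 2 or atractylodes high replicate 1 (adjusted p up to 0.274), and after licorice without vehicle replicate 2 or 3 or licorice high replicate 1 or 3 (adjusted p up to 0.186). EGLN1 was not called after poria (-0.06), ginseng (0.08) or angelica (0.07), and EGLN3 was not called after poria (-0.08), atractylodes (0.10) or angelica (0.30).

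**Figure D4:**
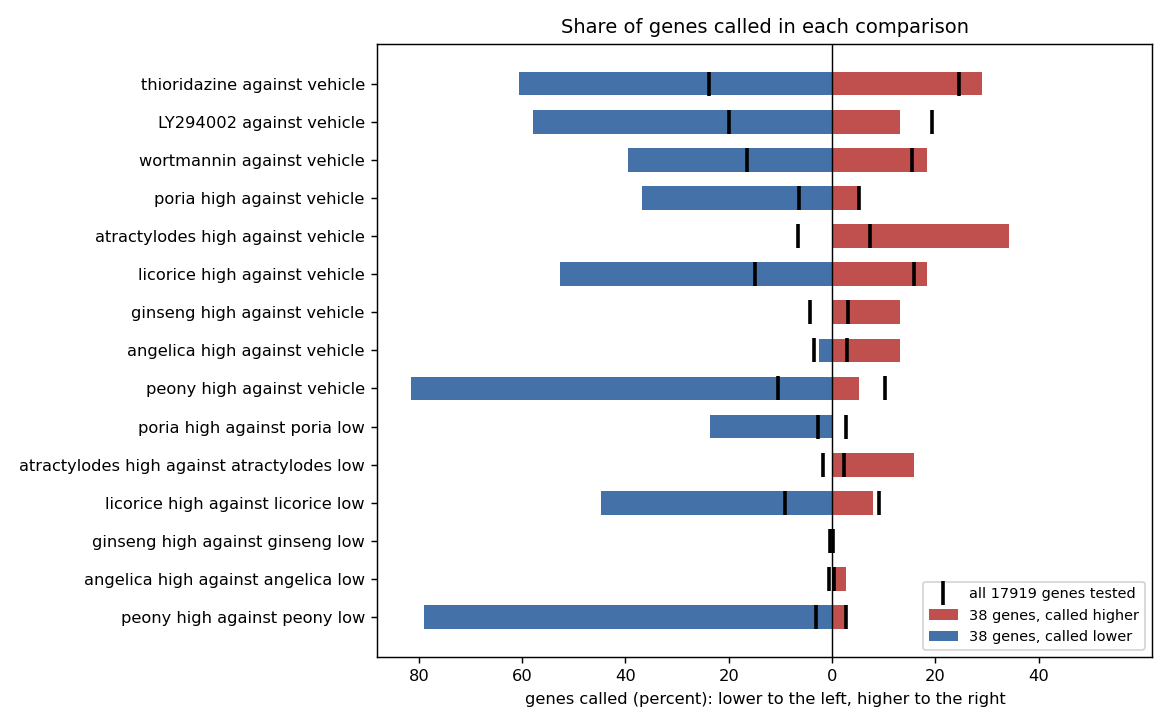
Percent of the 38 genes called higher (right) or lower (left) in each comparison, with black ticks for the percent of all genes tested. The bars for peony at the high dose reach far past the ticks on the left, both against vehicle (31 genes lower) and against its low dose (30 genes lower), and those for atractylodes at the high dose lie to the right.

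Set side by side, glycolytic enzymes and the other HIF targets had equal medians after peony at the high dose against vehicle and unequal ones after the drugs. After thioridazine the median log2 fold change was -0.53 for the 14 enzymes and -0.02 for the 18 other targets. It was -0.23 for the enzymes and 0.08 for the other targets after wortmannin, and -0.21 and -0.06 after LY294002. After the high doses it was -0.17 and -0.09 for licorice, -0.12 and -0.10 for poria, 0.08 and 0.10 for atractylodes and -0.32 and -0.32 for peony. For peony at the high against the low dose it was -0.25 for the enzymes and -0.35 for the other targets. The medians over all genes tested lay between -0.025 and 0.025 in every comparison. These values describe the genes listed, and no test was made of the difference between the roles.

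**Figure D5:**
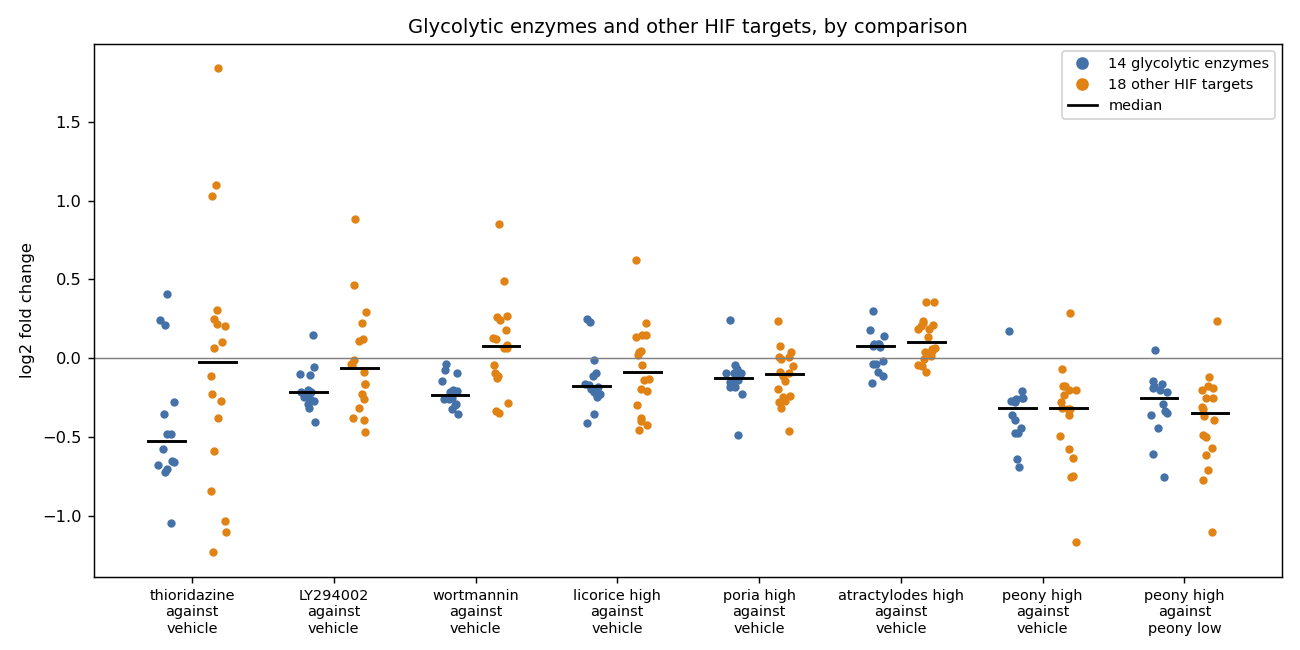
Log2 fold change of each of 14 glycolytic enzymes and 18 other HIF targets in 8 comparisons, with the median of each role as a line. The enzymes sit below the other targets after thioridazine (medians -0.53 and -0.02), and both sit at the same level after peony at the high dose against vehicle (-0.32 and -0.32) but not against its low dose (-0.25 and -0.35).

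The extracts' dose differences (high minus low dose on the log2 scale, each within 1 set) were compared with each other in 15 pairs, a test added after the data were seen. In peony the dose difference was lower than in atractylodes for 27 members (4.14% of all genes called in either direction), than in ginseng for 21 (1.26%), than in angelica for 19 (0.938%), than in licorice for 15 (12.7%) and than in poria for 12 (0.725%). Without the 5 libraries that stood apart, which leaves 1 high-dose peony library, the counts against atractylodes, angelica and poria were smaller and the other counts unchanged. In that fit atractylodes minus peony was 1.23 for BNIP3, 0.922 for ENO2 and 0.75 for NDRG1. BNIP3, ENO2, P4HA1 and NDRG1 were among the members lower in peony in all 5 pairs, with and without the 5 libraries. All 5 pairs use the same peony libraries, so they do not count as separate evidence. For BNIP3 the dose difference was -1.10 in peony, against 0.22 in atractylodes and -0.35 in poria. The dose difference of atractylodes minus that of peony was 1.32 ± 0.085 (edgeR adjusted p = 2.96e-17), and that of poria minus that of peony was 0.75 ± 0.085 (edgeR adjusted p = 1.2e-08).

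Genes of the same pathways outside the set were read from lists of their own, and their counts are to be read against the percent of all genes called, 24.6% higher and 23.8% lower after thioridazine, 15.4% and 16.4% after wortmannin, 19.4% and 19.9% after LY294002 and 10.3% and 10.4% after peony at the high dose. Of 11 tested genes on the list of other glycolysis genes, thioridazine raised 3 and lowered 3, wortmannin raised 2 and lowered 5, LY294002 raised 1 and lowered 5, and peony at the high dose raised 1 and lowered 4. PFKFB2, another enzyme of the PFKFB family, averaged 55.9 ± 0.581 CPM after thioridazine and 12.4 ± 0.469 CPM in vehicle (SD, n = 3 each; log2 fold change 2.18 ± 0.076, edgeR adjusted p = 1.19e-30). Hexokinase HK2, of the first step of the pathway, averaged 35.5 ± 1.75 CPM after LY294002 and 54.6 ± 1.58 CPM in vehicle (SD, n = 3 each), a log2 fold change of -0.62 ± 0.062. HK2 was also lower after peony at the high dose, by 0.44 ± 0.07 against vehicle and by 0.41 ± 0.076 against the low dose.

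Of 29 other hypoxia-induced genes, peony at the high dose lowered 19 and raised 1 against vehicle (median log2 fold change -0.29; 10.4% of all genes lower), and lowered 14 and raised 1 against its low dose (median -0.21; 3.13% of all genes lower). Without the 5 libraries that stood apart, which leaves 1 high-dose peony library, fewer of the 29 were called lower in both comparisons. AK4, a mitochondrial adenylate kinase, averaged 12.99 ± 0.987 CPM after peony at the high dose (SD, n = 2), against 24.6 ± 1.24 CPM in vehicle (SD, n = 3), a log2 fold change of -0.91 ± 0.081 (edgeR adjusted p = 1.07e-12). PDK1, a kinase that limits entry of pyruvate into the citric acid cycle, fell by 0.81 ± 0.071 on the log2 scale, and DDIT4, an inhibitor of mTOR signalling, fell by 1.16 ± 0.122 against the low dose. Atractylodes at the high dose raised 13 of the 29 and lowered 2 (7.24% of all genes higher and 6.63% lower), and raised 9 and lowered 1 without atractylodes high replicate 1, with STC2, a secreted glycoprotein, at 0.58 ± 0.061. Thioridazine raised 12 and lowered 12 (24.6% of all genes higher and 23.8% lower), among them EDN1 (endothelin) at -2.58 ± 0.216.

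Of 12 tested genes of the wider HIF machinery, peony at the high dose lowered 1, CITED2, at -0.20 ± 0.068, and thioridazine raised 3 and lowered 1, in both cases a smaller share than that of all genes called (20.7% and 48.4%). CITED2 was not called without the 5 libraries that stood apart. Of 11 tested lactate, pyruvate and glycogen genes, peony at the high dose lowered 3, including the lactate carrier SLC16A1 at -0.33 ± 0.044, and raised 1 (20.7% of all genes called). Thioridazine raised 4 and lowered 3 of them (48.4% of all genes called), with PPP1R3B, which targets a phosphatase to glycogen, at 0.96 ± 0.082 and the glycogen phosphorylase PYGL at -0.67 ± 0.037. PYGL was lower after both inhibitors as well, by 0.42 ± 0.037 after wortmannin and 0.42 ± 0.037 after LY294002.

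For some members the deposited counts are estimates shared between genes. More than 90% of values were not whole numbers (tolerance 1e-06) for 7 members (GAPDH, PGAM1, CA9, ANKRD37, LDHA, BNIP3 and PFKFB4), as arises where reads could be assigned to more than 1 gene, and their levels are less certain. SLC16A3, with 88.3% of values not whole, is close to these. NDRG1, PLOD2, ENO2, P4HA1, CA12, MXI1, ADM and KDM3A had whole values in all libraries.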

How the data were processed

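Per the submitters' processing notes, the authors' tools were RSEM 1.3.3, STAR 2.7.3a, Trim Galore 0.6.5 and FastQC 0.11.9, with genome build GRCh38/hg38. Values in the deposited table are expected counts; which strand setting was used is not stated in these sources. Of its 279 sample columns, 60 matched the labels and 219 were not used. Counts were rounded, genes filtered (filterByExpr, minimum count 10, minimum total 15), scaled by TMM and fitted in 1 edgeR 4.0.16 quasi-likelihood model (R 4.3.3, limma 3.58.1) with a coefficient for each group. Two-sided p-values were adjusted by Benjamini-Hochberg over 17919 genes in each of 29 comparisons. CPM carry no prior count. Genes without a symbol held 0.15% of counts.

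Members and lists were chosen with earlier results of these data known. Named members were those called with the greatest fold change whose groups do not overlap and whose higher group mean was at least 5 CPM. They were up to 5 for each drug and high dose, 3 for each direct comparison and 2 for each lower dose. The cut on level left out EGLN3, for example after thioridazine, LY294002 and licorice at the high dose. From each pathway list, the 2 called genes with the greatest fold change were eligible. The fit was tested on simulated data: among 17581 genes, thioridazine against vehicle recovered 22, 35 and 40 of 49 genes changed by 1.25, 1.5 and 2-fold. Peony at the high dose against vehicle recovered 22 of 47, 28 of 50 and 37 of 50 at the same sizes. At 4-fold the counts were 48 of 49 and 43 of 48, and 5 and 3 unchanged genes were called. The simulated spread was that fitted to these data, few genes were changed and no difference between sets was added. It therefore could not test the scaling under wide changes or the effect of sets. Alternatives were RLE scaling, library totals, no filter, DESeq2 1.42.0, a replicate block, 2 groups alone, leaving out single libraries and leaving out 5 libraries (for dose differences and other lists chosen after the data were seen). Replicates of a group differed by more than sampling noise in all 54 pairs, so none was counted as a duplicate.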

Additional observations from a re-analysis of the deposited data

Results flagged for a closer look

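Differences between effects that ran in opposite directions, with the difference itself tested, are given here (edgeR's quasi-likelihood test, adjusted over all genes). The dose difference is high minus low dose of an extract on the log2 scale. Genes are listed because their effects were called in opposite directions. By that choice, atractylodes stands on the other side of 0 from poria, licorice or peony for those listed first. Other genes shared a sign. In atractylodes and licorice the dose differences were 0.33 and 0.61 for ADM, and 0.23 and 0.15 for ENO2. The difference of poria minus atractylodes was -0.57 for BNIP3 and -0.30 for PLOD2. That of atractylodes minus licorice was 0.60 for BNIP3, 0.28 for PLOD2 and 0.37 for NDRG1. That of atractylodes minus peony was 1.32 for BNIP3, 0.98 for ENO2, 0.76 for NDRG1, 0.50 for PLOD2 and 0.29 for PFKP. Without the 5 libraries that stood apart, all 13 dose differences named in this section were called with the same sign. The BNIP3 dose effect of atractylodes was not called without atractylodes high replicate 1 (adjusted p = 0.141). Its NDRG1 dose effect was not called when any other single library of the 2 groups was left out. With the 2 groups fitted alone, 0 members were called for the dose effect of atractylodes.

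For KDM3A, licorice minus angelica was -0.65 and angelica minus peony was 0.55, while for ENO2 licorice minus peony was 0.90. The angelica effect on KDM3A was itself called only with all of its high-dose libraries and angelica low replicate 2 included.

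Between drugs, effects against vehicle ran opposite ways and the drugs differed directly. CA12 was higher after wortmannin than after LY294002, by 0.43. Thioridazine minus LY294002 was 1.26 for CA12, 0.65 for ENO2, 0.57 for ADM and 0.57 for VEGFA, and it was -0.43 for PFKL and -0.45 for SLC16A3.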

How the results depend on the processing

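No named member reversed under any alternative, and with RLE scaling every count of called members stayed within 1.5 times its value. High doses are H, medium M and low L, all against vehicle unless a pair is named. The counts that moved by more than 1.5 times were, with library totals in place of TMM, ginseng H 12, angelica H 11, poria M 0, atractylodes M 2, angelica M 7, licorice L 2 and ginseng L 0. Without the filter on low counts they were angelica H 3, poria M 0, atractylodes M 2, ginseng M 1, peony M 2, poria L 2, atractylodes L 2 and angelica H against L 0. With DESeq2 they were atractylodes M 2, ginseng M 1, peony M 3, poria L 2, atractylodes L 2, ginseng L 2, peony L 4 and angelica H against L 2. With the 2 groups fitted alone they were atractylodes H 3, ginseng H 14, angelica H 14, poria M 2, atractylodes M 3, licorice M 6, ginseng M 2, angelica M 10, peony M 12, poria L 4, atractylodes L 2, licorice L 8, ginseng L 0, peony L 11, atractylodes H against L 0 and angelica H against L 0. Without the 5 libraries that stood apart they were ginseng H 10, poria M 3, atractylodes M 2, ginseng M 1, angelica M 7, peony M 8, poria L 4, atractylodes L 2, ginseng L 5, angelica L 2, peony L 7 and angelica H against L 0, and for differences between dose effects (added after the data were seen) poria against licorice 16, poria against ginseng 2, poria against angelica 1 and atractylodes against angelica 1. Replicate numbers did not pair the libraries (same-number correlations -0.067 to 0.225; in 0 of 21 comparisons with 3 pairs were all over 0.1), and a replicate block moved 1 count, ginseng L to 2. Leaving out 1 library at a time gave 19 to 22 for wortmannin, 21 to 25 for LY294002, 34 to 34 for thioridazine, 10 to 12 for wortmannin against LY294002 and 31 to 32 for thioridazine against LY294002. At H it gave 12 to 14 for poria, 6 to 13 for atractylodes, 23 to 26 for licorice, 2 to 3 for ginseng, 1 to 3 for angelica and 29 to 33 for peony. At M it gave 0 to 1 for poria, atractylodes and peony, 10 to 18 for licorice, 0 to 0 for ginseng and 1 to 3 for angelica. At L it gave 0 to 0 for poria, 0 to 1 for atractylodes and angelica, 1 to 3 for licorice, 0 to 2 for ginseng and 1 to 2 for peony. For H against L it gave 5 to 8 for poria, 4 to 8 for atractylodes, 14 to 18 for licorice, 0 to 0 for ginseng, 0 to 5 for angelica and 21 to 31 for peony. Where a group of 2 lost a library, the remaining one was assumed to vary like the other groups. The count of all genes called also moved by more than 1.5 times, in 20 of 29 comparisons with the 2 groups fitted alone and in 18 of 29 without the 5 libraries. Shifts in the counts of members are thus not read as particular to the set. The cause of these shifts was not tested. Depth limits EGLN3, ANKRD37 and ALDOC most, the members with the lowest levels in CPM.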
